A study of Mus musculus with 40 samples.

Results

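The expression of 8 growth arrest genes was followed in the mouse aorta during the first hours of angiotensin II (Ang-II) infusion. The genes were Cdkn1a (p21), Mdm2, Gadd45a, Gadd45b, Gadd45g, Ccng1, Btg2 and Trp53inp1. They were chosen by symbol, and all 8 were found among the 17402 genes listed in a genotype experiment and among the 15399 genes listed in a cyclosporin A (CsA) experiment. The genotype experiment (22 libraries) compared male mice carrying a floxed allele of CnB1, the regulatory subunit of the phosphatase calcineurin (Cn). Cn-Ctl mice were CnB1-flox and Myh11-CreERT2-negative, and SM-Cn-/- mice were CnB1-flox and Myh11-CreERT2-positive, the Myh11 promoter placing the inducible Cre recombinase in smooth muscle. The methods of the study differ on this point, since they also count mice with Myh11-CreERT2 and unfloxed CnB1 among the Cn-Ctl controls. Both genotypes were given tamoxifen at 1 mg per day for 5 days at an age of 10 to 12 weeks, and 6 weeks later they were left untreated or fitted with a minipump delivering Ang-II at 1 µg/kg/min for 2, 6 or 24 h. The CsA experiment (18 libraries) used male C57BL/6J mice that carried a CsA minipump for 5 days (CsA) or no pump at that stage (WT), and both were then left untreated or infused with Ang-II at the same dose for 2 or 24 h. CsA was delivered at 5 mg/kg per day, and by the study's design these mice were 10 to 12 weeks old when it began.

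Each library was made from the pooled aortas of 3 mice, and each group had 3 libraries except untreated Cn-Ctl and Cn-Ctl at 24 h, which had 2 (replicates 2 and 3). Ang-II-treated Cn-Ctl, WT and CsA mice entered only if their systolic pressure passed 130 mmHg, whereas SM-Cn-/- mice treated in parallel all entered. Perivascular tissue and adventitia had been stripped from the vessels. Values are the deposited normalised signal, which is close to CPM, and they can be compared between libraries of one experiment but were normalised separately in the other.

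The products of these genes act on the cell cycle or on p53 in different ways, and not all of them restrain growth. Cdkn1a encodes the cyclin-dependent kinase inhibitor p21, which blocks entry into S phase and is the classical target of the tumour suppressor p53. Mdm2 is both a p53 target and the ubiquitin ligase that degrades p53, while Ccng1 (cyclin G1) recruits a phosphatase to Mdm2 and Trp53inp1 is a stress protein that modulates p53 and autophagy. The 3 Gadd45 proteins bind p21, PCNA and the kinase MAP3K4 upstream of p38 and JNK, and Btg2 is an antiproliferative protein that recruits the deadenylase complex to mRNAs. Cdkn1a, Btg2 and the Gadd45 genes are also known as early-response genes that growth factors and stress switch on without p53, and calcineurin, which CsA inhibits, activates the NFAT transcription factors in vascular smooth muscle.

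In the GRCm38 annotation all 8 are protein-coding genes. On the plus strand lie Cdkn1a (ENSMUSG00000023067) at chr17:29090976-29100727, Gadd45b (ENSMUSG00000015312) at chr10:80930073-80932204, Gadd45g (ENSMUSG00000021453) at chr13:51846678-51848468 and Trp53inp1 (ENSMUSG00000028211) at chr4:11156431-11174379. On the minus strand lie Mdm2 (ENSMUSG00000020184) at chr10:117688875-117710758, Gadd45a (ENSMUSG00000036390) at chr6:67035096-67037457, Ccng1 (ENSMUSG00000020326) at chr11:40748552-40755311 and Btg2 (ENSMUSG00000020423) at chr1:134075170-134079120.

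The 250 bases before the transcription start in RefSeq (GRCm38.p6) are shown for Cdkn1a, Btg2, Gadd45b and Gadd45g, since these genes rose at 2 h in both WT and CsA aortas. Trp53inp1 and Mdm2 rose in both as well, but the rises of Mdm2 were smaller (log2 fold change 0.46 in each) and its window is not shown. The table held 8 windows for 7 of the 8 genes, Cdkn1a having 2 starts and Trp53inp1 no entry. The windows are chr17:29090729-29090978 and chr17:29093519-29093768 for Cdkn1a (plus strand), chr1:134079156-134079405 for Btg2 (minus strand), chr10:80929841-80930090 for Gadd45b (plus strand) and chr13:51846425-51846674 for Gadd45g (plus strand). Sequences run 5′ to 3′ in the strand of the gene, and capitals mark matches on either strand to the p53 decamer (a full response element is a pair of them), the cAMP response element TGACGTCA, the E-box CACGTG, the GC box GGGCGG and the TATA box TATAAA.
Cdkn1a start 1: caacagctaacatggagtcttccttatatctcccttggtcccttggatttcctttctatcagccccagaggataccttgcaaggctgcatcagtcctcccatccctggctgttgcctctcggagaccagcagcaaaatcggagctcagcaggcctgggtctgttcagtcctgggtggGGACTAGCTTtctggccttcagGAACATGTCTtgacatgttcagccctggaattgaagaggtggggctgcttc
Cdkn1a start 2: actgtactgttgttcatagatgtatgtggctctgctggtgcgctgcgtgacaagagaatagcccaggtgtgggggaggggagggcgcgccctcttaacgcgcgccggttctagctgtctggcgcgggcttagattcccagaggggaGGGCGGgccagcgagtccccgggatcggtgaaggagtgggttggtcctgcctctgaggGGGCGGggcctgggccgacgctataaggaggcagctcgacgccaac
Btg2: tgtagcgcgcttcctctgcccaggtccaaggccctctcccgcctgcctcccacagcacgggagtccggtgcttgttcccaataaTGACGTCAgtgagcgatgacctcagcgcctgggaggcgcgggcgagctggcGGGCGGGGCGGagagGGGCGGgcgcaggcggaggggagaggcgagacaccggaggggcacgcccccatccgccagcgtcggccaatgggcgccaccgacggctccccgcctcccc
Gadd45b: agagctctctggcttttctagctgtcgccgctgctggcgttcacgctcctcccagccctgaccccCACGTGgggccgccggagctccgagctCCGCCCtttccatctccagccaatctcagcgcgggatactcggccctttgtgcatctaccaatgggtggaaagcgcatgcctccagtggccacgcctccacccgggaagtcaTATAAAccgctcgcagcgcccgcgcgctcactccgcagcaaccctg
Gadd45g: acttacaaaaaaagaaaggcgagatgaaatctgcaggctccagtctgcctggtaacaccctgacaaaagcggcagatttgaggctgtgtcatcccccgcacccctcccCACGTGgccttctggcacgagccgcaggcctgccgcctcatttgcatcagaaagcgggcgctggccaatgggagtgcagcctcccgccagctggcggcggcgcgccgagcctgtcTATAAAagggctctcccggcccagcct

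The first Cdkn1a window held 2 matches to the p53 decamer, at -73 to -64 and -51 to -42 from the start, and single matches lay in the windows of Ccng1, Gadd45a and Mdm2. Such a match occurred in 7.126% of the 32851 windows of the table. Btg2 alone among the 7 genes held TGACGTCA, at -166 to -159, a motif present in 1.546% of windows, and its 3 GC boxes partly overlap. The CACGTG motif lay at -185 to -180 in Gadd45b and at -142 to -137 in Gadd45g and occurred in 6.021% of windows. Both of these genes also held TATAAA, at -46 to -41 in Gadd45b and at -27 to -22 in Gadd45g, which 12.37% of windows held. The NFAT core GGAAA was found in the windows of Ccng1, Cdkn1a, Gadd45a and Gadd45b and in 55.57% of all windows. The short Smad motif CAGAC was found in those of Ccng1, Cdkn1a, Gadd45a and Gadd45g and in 42.19% of all windows. The core TGACG of the cAMP response element lay in the Btg2 window alone among the 7 genes and in 17.77% of windows, and within Btg2 it is part of TGACGTCA. The GC box GGGCGG was found in Btg2, Cdkn1a, Gadd45a, Gadd45b and Mdm2 and in 32.74% of windows. No window of these genes held the AP-1 site TGAGTCA (4.463% of windows), the Smad box GTCTAGAC (0.1674%), an SRF CArG box (1.467%) or an NF-kB site (0.2253%). Both strands were searched, and a match is a run of letters in this window and no measure of binding.

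The depth was 2.728 to 10.25 M reads per library in the genotype experiment, against 18.976 to 38.9 M in the deeper CsA experiment. All 8 smooth muscle markers fixed as a list, among them Myh11 and Acta2, were measured in both experiments, with a summed signal of 22890 to 52060 in the genotype libraries and 17720 to 38300 in the CsA libraries. The signal of Ppp3r1, the gene for CnB1, was 103.9 and 78.75 in untreated Cn-Ctl and 83.54, 69.53 and 48.85 in untreated SM-Cn-/-, and the genotypes overlapped (averaged over hours, log2 fold change -0.23, adjusted p = 0.47). This whole-gene signal from pooled aortas, in which other cell types keep the allele, is a weak check of the deletion. Rcan1, a known calcineurin and NFAT target, stood at 367.6, 404 and 380.2 in Cn-Ctl at 2 h and at 46.59, 31.68 and 55.35 in SM-Cn-/- at 2 h (log2 fold change -3.13, adjusted p = 3.3e-06). CsA also lowered Rcan1 at 2 h against WT (log2 fold change -1.16, adjusted p = 0.018).

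Ang-II for 2 h raised at least a pair of the 8 genes in each of the 4 kinds of mouse. Here a gene is said to rise, fall or differ where its adjusted p was under 0.05 in limma over all protein-coding genes tested, 14424 for the genotype and 13738 for the CsA experiment. The shares of all genes called are those of limma throughout, also where calls by edgeR or DESeq2 are given. In Cn-Ctl at 2 h, 4 genes (Cdkn1a, Mdm2, Gadd45g and Btg2) rose, where 6.23% of all genes tested were called. For 7 of the 8 genes the treated libraries did not overlap the untreated ones. The share of all genes without such overlap was not computed, so this count stands without a background. The median log2 fold change of the 8 genes was 1.22 in Cn-Ctl, against 0.01 over all genes. In SM-Cn-/- at 2 h, 2 genes (Btg2 and Trp53inp1) rose, against 1.13% of all genes, and the median of the 8 was 0.63. In WT at 2 h, 7 genes rose and only Ccng1 was not called, against 21.4% of all genes, and the median was 1.22. In CsA at 2 h, 6 genes rose and Ccng1 fell, against 20.1% of all genes, and the median was 0.85. All 8 genes were measured in every library and passed the filter on low values in both experiments.

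The responses were narrower later on. At 6 h, 3 genes (Cdkn1a, Gadd45g and Btg2) rose in Cn-Ctl, where 3.97% of all genes were called. In SM-Cn-/- at 6 h, Gadd45g alone rose, against 2.34% of all genes. At 24 h, Cdkn1a and Gadd45g rose in Cn-Ctl, against 5.62% of all genes. None was called in SM-Cn-/- at 24 h by limma, where 3 had an unadjusted p under 0.05, edgeR called 0 and DESeq2 called 1 (Gadd45g), against 0.790% of all genes. In WT at 24 h, Cdkn1a and Gadd45g rose and Trp53inp1 fell, against 35.0% of all genes, so the share of these genes called was close to the background there. In CsA at 24 h, Ccng1 alone was called and it fell, against 8.98% of all genes. Responses within a kind of mouse share their untreated libraries, so the hours are not independent of each other.

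Cell type markers moved with some of these responses, and for the sums named here the treated libraries did not overlap the untreated ones. At 2 h the summed signal of the neuronal and Schwann cell markers was 185.5 to 251.6 against 108.3 to 109.5 in Cn-Ctl, 143.2 to 149.4 against 100.7 to 115.9 in SM-Cn-/- and 163.1 to 221.9 against 92.11 to 118.8 in WT. The fibroblast sum at 2 h was 1720 to 2761 against 911.7 to 1654 in Cn-Ctl and 2016 to 2441 against 1205 to 1954 in SM-Cn-/-. The smooth muscle sum was 28130 to 34420 against 22890 to 26580 in SM-Cn-/- at 2 h and 34960 to 36470 against 31340 to 32060 in Cn-Ctl at 6 h. In SM-Cn-/- at 24 h the endothelial sum was 1147 to 1200 against 579 to 779.6. Limma called 1 of 7 fibroblast and 1 of 5 neuronal and Schwann cell markers in Cn-Ctl at 2 h, both higher, against 6.23% of all genes. It called none of the 5 neuronal and Schwann cell markers in SM-Cn-/-. In CsA at 2 h the leukocyte sum was lower (107.1 to 125.2 against 197.3 to 278.8) and the smooth muscle sum higher (21670 to 27850 against 17720 to 19890). In CsA at 24 h the smooth muscle sum (20170 to 29320 against 17720 to 19890) and the blood sum (386.8 to 2484 against 131.8 to 138.3) were higher. In WT at 24 h, where 35.0% of all genes were called, 7 of 7 leukocyte markers rose (sum 189.5 to 315.2 against 73.83 to 112.1) and 4 of 8 smooth muscle markers fell. There 2 of 8 endothelial markers (700.4 to 837.1 against 393.9 to 655.5) and 2 of 7 adipocyte markers (1608 to 1892 against 668.6 to 1249) rose, both shares below that of all genes. In Cn-Ctl the leukocyte sum was 110.5 to 297.9 at 6 h and 152.9 to 247.6 at 24 h against 68.17 to 101.7, and the endothelial sum 547.3 to 628.4 and 510.4 to 529.1 against 340.2 to 447.6. The part of these cell types in the responses of the 8 genes was not tested.

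**Figure D1:**
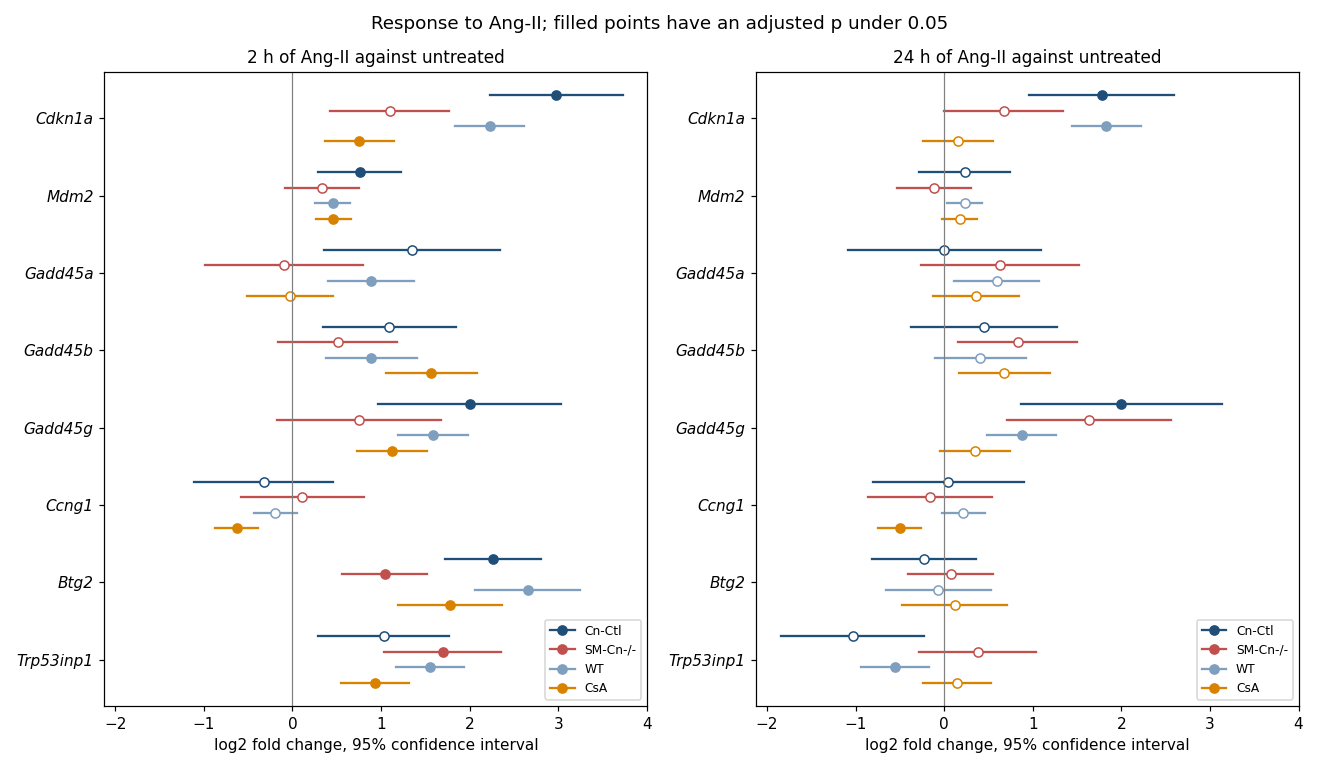
Log2 fold changes of the 8 genes after 2 h (left) and 24 h (right) of Ang-II against the untreated libraries of the same kind of mouse, with 95% confidence intervals from limma and 2 or 3 libraries per group; filled points have an adjusted p under 0.05. At 2 h, Cdkn1a lies at 2.98 in Cn-Ctl and 2.23 in WT and nearer to 0 in SM-Cn-/- and CsA, and Ccng1 is the gene without a called rise in any of the 4.

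Cdkn1a had the largest rise of the 8 genes in Cn-Ctl at 2 h. Its signal was 29.49 and 29.66 in the untreated Cn-Ctl libraries and 389.9, 255.6 and 132.7 after 2 h of Ang-II, so the lowest treated library stood well above both untreated ones although the treated libraries differed among themselves. The log2 fold change was 2.98 ± 0.36 (SE), adjusted p = 1.1e-05, a fold of 7.88. At 6 h the Cn-Ctl libraries held 78.69, 82.82 and 130.2 and at 24 h 90.69 and 115.8. These levels were lower than at 2 h but all lay above the untreated libraries, with log2 fold changes of 1.66, adjusted p = 0.0093 at 6 h and 1.78, adjusted p = 0.0094 at 24 h. Leaving out either untreated library removed the call at 6 h (adjusted p between 0.096 and 0.097, log2 fold change between 1.66 and 1.67), and leaving out either of them or replicate 3 at 24 h removed the call at 24 h (adjusted p between 0.072 and 0.12, log2 fold change between 1.60 and 1.78).

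In SM-Cn-/- aortas Cdkn1a was 78.31, 34.57 and 40.76 untreated and 124.7, 86.25 and 102.2 at 2 h. The treated libraries lay above the untreated ones, among which replicate 1 stood apart from the other 2, and the response was not called (log2 fold change 1.10 ± 0.32 (SE), adjusted p = 0.12). At 6 h the libraries held 60.26, 76.17 and 111.9 (log2 fold change 0.73, adjusted p = 0.26) and at 24 h 88.69, 72.82 and 70.42 (0.67, adjusted p = 0.43), and both ranges overlapped the untreated one. At 2 h the SM-Cn-/- libraries were below every Cn-Ctl library, and the difference was called (log2 fold change -1.19 ± 0.32 (SE), adjusted p = 0.040, fold 0.438). That call was lost with quantile normalization (-0.96, adjusted p = 0.14), when only these groups entered the fit (adjusted p = 0.076) and without Cn-Ctl replicate 1 or 2 at 2 h or any one of the 3 SM-Cn-/- libraries at 2 h (adjusted p between 0.062 and 0.32, log2 fold change between -1.33 and -0.83), most of all without Cn-Ctl replicate 1. The untreated SM-Cn-/- libraries were all higher than the untreated Cn-Ctl ones (log2 fold change 0.69, adjusted p = 0.97), a difference that was not called. Some cell type sums also separated the untreated genotypes without overlap. In SM-Cn-/- against Cn-Ctl they were 22890 to 26580 against 31340 to 32060 for smooth muscle and 579 to 779.6 against 340.2 to 447.6 for endothelium. Leukocytes held 131.5 to 227.8 against 68.17 to 101.7 and skeletal muscle 11.79 to 23.86 against 8.229 to 9.034, while the other sums overlapped. Their part in the genotype differences, also between responses, was not tested.

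The deeper CsA experiment showed the same gene at 27.1, 29.84 and 32.7 in untreated WT and at 140.6, 123.4 and 162 after 2 h of Ang-II, with tight replicates (log2 fold change 2.23 ± 0.19 (SE), adjusted p = 8.1e-07, fold 4.68). At 24 h WT aortas still held 119.4, 104.8 and 98.69 (1.83 ± 0.19 (SE), adjusted p = 3.7e-06), above every untreated library. In mice on CsA the untreated level was already 78.07, 48.55 and 79.06, above all WT untreated libraries (log2 fold change 1.15 ± 0.19 (SE), adjusted p = 0.0010, fold 2.23). From that level Cdkn1a rose at 2 h to 135.1, 120.2 and 89.81 (0.76 ± 0.19 (SE), adjusted p = 0.010) and at 24 h stood at 67.27, 68.41 and 90.5 (0.16, adjusted p = 0.62), which overlapped the untreated CsA libraries. The rise in CsA at 2 h was not called when only its own groups entered the fit (adjusted p = 0.072).

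The Cdkn1a response to Ang-II was smaller with CsA, with a difference of -1.47 on the log2 scale at 2 h (95% confidence interval -2.03 to -0.91, adjusted p = 0.042) and of -1.67 at 24 h (-2.23 to -1.12, adjusted p = 0.0034). The treated levels themselves did not pass the test, at 2 h (CsA against WT -0.31, adjusted p = 0.38) or at 24 h (-0.52, adjusted p = 0.11), although at 24 h every CsA library was below every WT library. The difference at 24 h was called under every alternative and without any one library. The difference at 2 h was not called by edgeR (adjusted p = 0.064), with quantile normalization (0.070), with the replicate number as a block (0.061) or without any one of 11 of the 12 libraries, all but CsA untreated replicate 2 (adjusted p between 0.052 and 0.15, log2 fold change between -1.59 and -1.30). In the genotype experiment the corresponding difference at 2 h, SM-Cn-/- minus Cn-Ctl, was -1.88 (-2.89 to -0.87) and was not called (adjusted p = 0.11), while DESeq2 called it (-2.13, adjusted p = 0.0033). At 6 h it was -0.93, adjusted p = 0.84, and at 24 h -1.10, adjusted p = 0.43.

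Other cell types moved with the untreated CsA comparison, in which 25.2% of all genes were called. The summed signal of 7 adipocyte markers was 3863 to 6372 in untreated CsA and 668.6 to 1249 in untreated WT, and 6 of the 7 were higher in CsA. Of the endothelial markers, 8 of 8 were higher, with a sum of 1036 to 1200 against 393.9 to 655.5, and of the leukocyte markers 7 of 7 tested were higher, with a sum of 197.3 to 278.8 against 73.83 to 112.1. Smooth muscle markers were lower, 8 of 8, with a sum of 17720 to 19890 against 27620 to 37860. Of the fibroblast markers 1 of 7 and of the neuronal and Schwann cell markers 1 of 6 was higher, and limma, edgeR and DESeq2 called none of the 5 blood and 3 skeletal muscle markers tested, none of which had an unadjusted p under 0.05. The part of these cell types in the higher untreated Cdkn1a and Ccng1 of CsA mice, and in the differences between responses that use the same libraries, was not tested. In bulk samples of this kind, fewer cells of a type and less RNA per cell cannot be told apart.

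**Figure D2:**
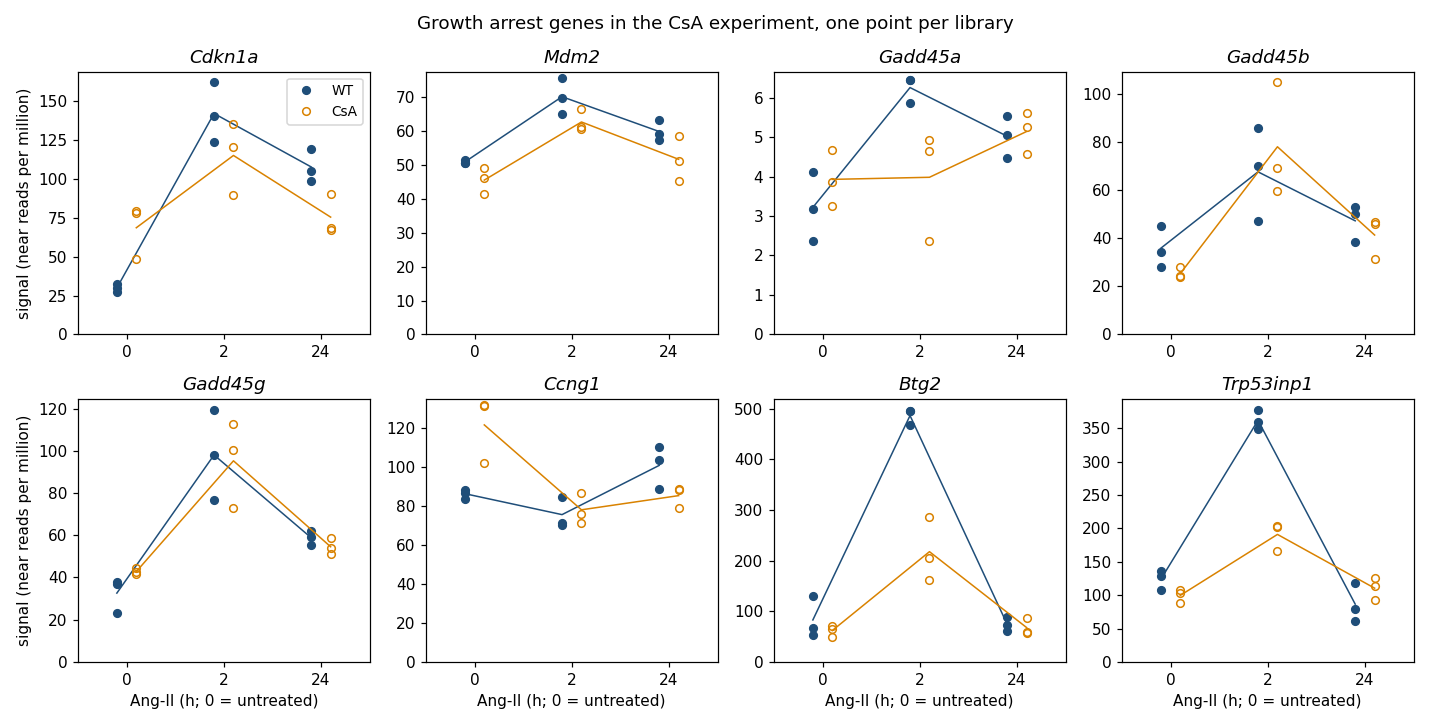
Signal (near CPM, linear axis from 0) of the 8 genes in each library of the CsA experiment against hours of Ang-II, 0 standing for untreated; points are libraries, 3 per group, and lines join the group means. The 3 untreated CsA libraries hold more Cdkn1a (48.55 to 79.06) than the 3 untreated WT libraries (27.1 to 32.7), and Btg2 and Trp53inp1 at 2 h are lower in all CsA libraries than in all WT libraries.

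Btg2 was the other gene with a strong early rise, and its level at 2 h was lower where calcineurin was deleted or inhibited. In Cn-Ctl its signal was 92.85 and 85.14 untreated, 284.6, 562.1 and 494.5 at 2 h and 251.9, 267.4 and 235.9 at 6 h. All treated libraries at these hours lay above the untreated ones, with log2 fold changes of 2.27 ± 0.26 (SE), adjusted p = 4.9e-06 (fold 4.81) and 1.49, adjusted p = 0.0013. At 24 h the 2 libraries held 104.8 and 55.01, on both sides of the untreated pair (-0.23, adjusted p = 0.71). SM-Cn-/- aortas held 105.9, 94.28 and 89.72 untreated and 218.6, 160 and 226 at 2 h, a rise without overlap (log2 fold change 1.04 ± 0.23 (SE), adjusted p = 0.025, fold 2.06). The rise in SM-Cn-/- was not called without replicate 1 or 3 at 2 h or replicate 2 or 3 of the untreated group (adjusted p between 0.055 and 0.15, log2 fold change between 0.95 and 1.03) or with quantile normalization (0.92, adjusted p = 0.051). At 6 h they held 142.8, 125.9 and 133.4, all above the untreated libraries but not called (0.47, adjusted p = 0.32), and at 24 h 123.2, 82.09 and 103.1 (0.07, adjusted p = 0.95).

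For Btg2 every SM-Cn-/- library was below every Cn-Ctl library at both 2 h and 6 h. The difference was -1.11 ± 0.23 (SE), adjusted p = 0.0062 on the log2 scale at 2 h (fold 0.465) and -0.91 ± 0.23 (SE), adjusted p = 0.043 at 6 h (fold 0.534). At 2 h the call was lost with quantile normalization (adjusted p = 0.055) and without SM-Cn-/- replicate 2 or Cn-Ctl replicate 2 (adjusted p between 0.064 and 0.065, log2 fold change between -0.95 and -0.91). At 6 h it was lost without any one of 5 of the 6 libraries, all but SM-Cn-/- replicate 1 (adjusted p between 0.066 and 0.15, log2 fold change between -0.95 and -0.86), with quantile normalization and when only these groups entered the fit. The difference between the responses was -1.22 at 2 h (-1.94 to -0.50, adjusted p = 0.18) and -1.02 at 6 h (-1.74 to -0.30, adjusted p = 0.57), neither called by limma, and DESeq2 called the one at 2 h (-1.29, adjusted p = 0.014).

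In WT aortas Btg2 was 52.44, 66.49 and 129.4 untreated and 495.8, 494.4 and 468.2 at 2 h, all treated libraries far above the untreated ones (log2 fold change 2.66 ± 0.28 (SE), adjusted p = 7.2e-06, fold 6.3). CsA aortas went from 71.25, 65.14 and 49.3 to 160.9, 204.8 and 286.9 at 2 h (1.78 ± 0.28 (SE), adjusted p = 0.00050, fold 3.44). At 24 h both had values near the untreated ones, 88.24, 73.67 and 60.66 in WT (-0.06, adjusted p = 0.89) and 58.12, 87.5 and 57.57 in CsA (0.12, adjusted p = 0.82). At 2 h the highest CsA library stayed below the lowest WT library, and the difference was -1.20 ± 0.28 (SE), adjusted p = 0.045 (fold 0.436). This call rested on narrow margins, since it was lost without any one of 5 of the 6 libraries, all but CsA replicate 3 (adjusted p between 0.056 and 0.22, log2 fold change between -1.23 and -1.002), with quantile normalization, by edgeR, with the replicate number as a block (adjusted p = 0.072) and when only these groups entered the fit. Averaged over the 3 states, CsA libraries were lower than WT by -0.56 ± 0.16 (adjusted p = 0.017), a call that no alternative or left-out library removed. The difference between the responses at 2 h was -0.87 (-1.71 to -0.04, adjusted p = 0.34).

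Cell type markers also differed in part between the groups at 2 h, where 3.70% of all genes were called between genotypes and 1.33% between CsA and WT. Between SM-Cn-/- and Cn-Ctl at 2 h, 1 of 8 smooth muscle markers was lower (summed signal 28130 to 34420 against 29810 to 38530) and 1 of 8 endothelial markers was higher (695.7 to 870 against 313.9 to 553.3). The sum of the neuronal and Schwann cell markers was lower without overlap (143.2 to 149.4 against 185.5 to 251.6), with none of the 5 called. None of the 7 leukocyte and none of the 7 adipocyte markers was called there by limma, edgeR or DESeq2, and none had an unadjusted p under 0.05. At 6 h the smooth muscle sum was lower in SM-Cn-/- than in Cn-Ctl without overlap (25380 to 31340 against 34960 to 36470), while the other sums overlapped. Its part in the Btg2 difference between genotypes at 6 h was not tested. Between CsA and WT at 2 h, limma and edgeR called none of the smooth muscle, endothelial and adipocyte markers. The unadjusted p was under 0.05 for 6 of 8 smooth muscle, 8 of 8 endothelial and 4 of 7 adipocyte markers. DESeq2, which called 794 genes in all there, called 5, 5 and 2 of them. The sums did not overlap for smooth muscle (21670 to 27850 in CsA against 30600 to 38300 in WT), endothelium (838.6 to 1073 against 593.9 to 640.3) or adipocytes (1945 to 5376 against 992.2 to 1639), and their part in the differences at 2 h was not tested.

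**Figure D3:**
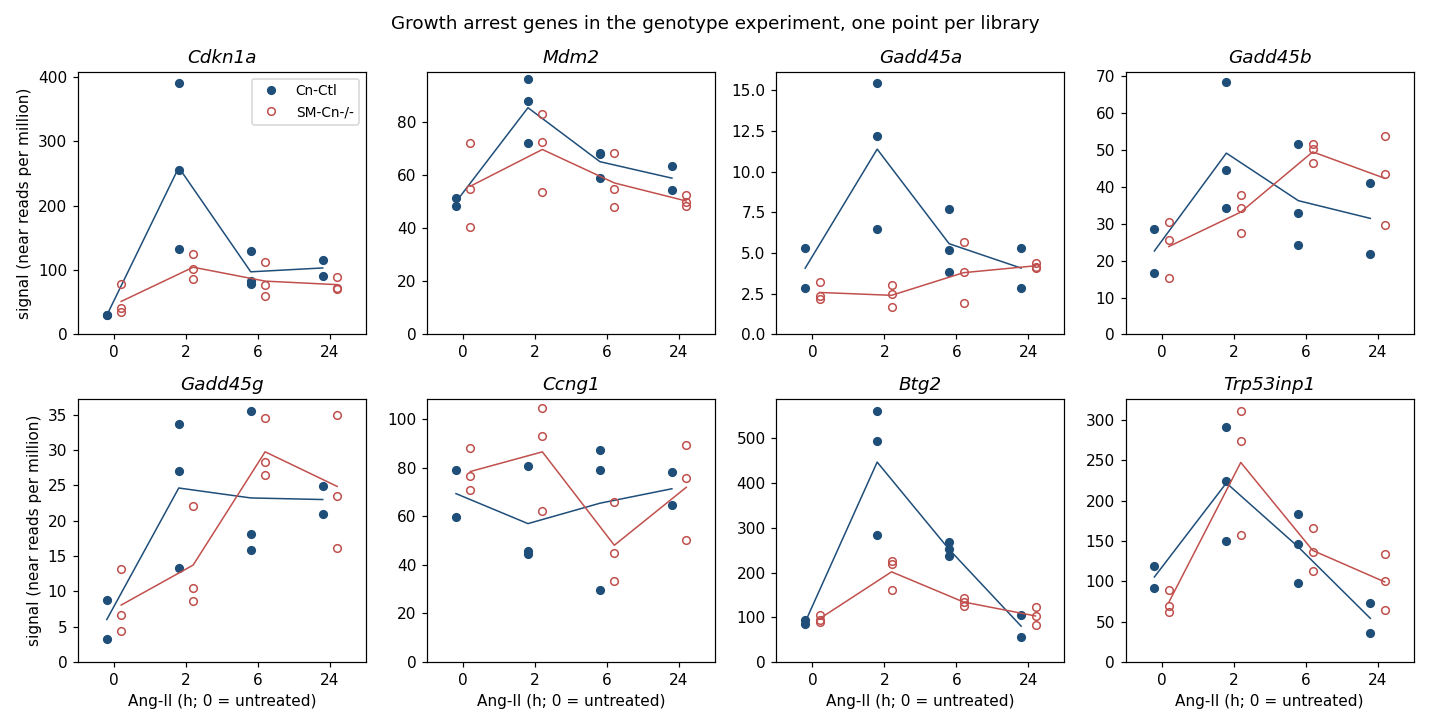
Signal (near CPM, linear axis from 0) of the 8 genes in each library of the genotype experiment against hours of Ang-II, 0 standing for untreated; points are libraries, 2 or 3 per group, and lines join the group means. Cdkn1a, Gadd45a and Btg2 at 2 h lie lower in all 3 SM-Cn-/- libraries than in all 3 Cn-Ctl libraries, while Trp53inp1 overlaps between the genotypes at 2 h.

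Trp53inp1 also rose early, and at 2 h it was lower with CsA while the genotypes overlapped. Its signal in SM-Cn-/- was 69.36, 89.69 and 62.32 untreated and 273.4, 311.6 and 156.7 at 2 h, a rise without overlap (log2 fold change 1.69 ± 0.32 (SE), adjusted p = 0.0076, fold 3.24). In Cn-Ctl it was 91.39 and 119.1 untreated and 149.7, 224.8 and 290.8 at 2 h, also without overlap, but this change was not called (1.03 ± 0.36 (SE), adjusted p = 0.097). At 2 h the genotypes overlapped (log2 fold change 0.15, adjusted p = 0.90), and the difference between the responses was 0.66 (-0.33 to 1.66, adjusted p = 0.80), so the genotypes were not shown to differ. The SM-Cn-/- call was lost without replicate 1 or 2 at 2 h or untreated replicate 3 (adjusted p between 0.057 and 0.072, log2 fold change between 1.50 and 1.59). In Cn-Ctl at 24 h the signal of 72.65 and 35.34 was below both untreated libraries, and in SM-Cn-/- it was 133.6, 63.71 and 100.1, with an uncalled difference between the 2 responses of 1.41 (0.36 to 2.46, adjusted p = 0.25).

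WT aortas held 107.1, 136.3 and 128.3 untreated and 377.7, 349.2 and 359.1 at 2 h, a rise with little spread (log2 fold change 1.55 ± 0.18 (SE), adjusted p = 1.8e-05, fold 2.93). CsA aortas held 103, 107.5 and 88.53 untreated and 203.9, 166.5 and 202.8 at 2 h (0.93 ± 0.18 (SE), adjusted p = 0.0023, fold 1.91). The untreated groups overlapped, and at 2 h all CsA libraries were below all WT libraries (log2 fold change -0.93 ± 0.18 (SE), adjusted p = 0.026, fold 0.526). The call at 2 h was lost without WT replicate 1 or 3 or CsA replicate 1 or 2 (adjusted p between 0.057 and 0.13, log2 fold change between -0.98 and -0.83), with quantile normalization and when only these groups entered the fit. The difference between the responses at 2 h was -0.62 (-1.16 to -0.07, adjusted p = 0.31). At 24 h in WT the gene fell to 118.1, 61.62 and 79.96 (log2 fold change -0.56 ± 0.18 (SE), adjusted p = 0.024), though one library overlapped the untreated range, and the call was lost without replicate 2 or 3 of either group (adjusted p between 0.066 and 0.15, log2 fold change between -0.53 and -0.34) and when only these groups entered the fit (adjusted p = 0.058). At 24 h of CsA it was 113.8, 125.6 and 92.04 (0.14, adjusted p = 0.65), and the difference between the responses was 0.70 (0.16 to 1.24, adjusted p = 0.092).

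Among the 3 Gadd45 genes, Gadd45g was the one called at hours after 2 h. In Cn-Ctl it was 8.812 and 3.194 untreated, 27.02, 33.65 and 13.24 at 2 h, 15.92, 18.19 and 35.58 at 6 h and 21.02 and 24.98 at 24 h. Every treated library was above the untreated pair, and the log2 fold changes were 2.00 ± 0.50 (SE), adjusted p = 0.016 at 2 h, 1.93, adjusted p = 0.029 at 6 h and 2.00, adjusted p = 0.033 at 24 h. These 3 calls rested on untreated replicate 3, the lowest library. Without it the values were 1.33 at 2 h (adjusted p = 0.36), 1.26 at 6 h (0.46) and 1.33 at 24 h (0.34). The call at 2 h was also lost without replicate 1 or 2 at that hour, that at 6 h without replicate 3 and that at 24 h without replicate 2 or 3 (adjusted p from 0.063 at 2 h, 0.13 at 6 h and 0.063 at 24 h). The calls at 6 h and 24 h were also lost by edgeR (adjusted p = 0.051 and 0.057) and when only these groups entered the fit (0.16 and 0.12). In SM-Cn-/- it was 6.644, 13.14 and 4.38 untreated and 26.47, 28.3 and 34.53 at 6 h, without overlap (log2 fold change 1.95 ± 0.45 (SE), adjusted p = 0.021). The call was lost without replicate 2 or 3 at 6 h or untreated replicate 1 or 3 (adjusted p between 0.070 and 0.13, log2 fold change between 1.61 and 1.98). At 2 h SM-Cn-/- held 8.622, 10.47 and 22.06 (0.75, adjusted p = 0.49) and at 24 h 23.45, 16.14 and 35 (1.63, adjusted p = 0.097), neither called.

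In the CsA experiment Gadd45g rose at 2 h in both kinds of mouse, from 37.9, 36.7 and 23.17 to 119.5, 76.73 and 97.78 in WT (log2 fold change 1.58 ± 0.19 (SE), adjusted p = 1.9e-05) and from 41.61, 42.4 and 44.33 to 100.3, 112.6 and 72.79 in CsA (1.12 ± 0.19 (SE), adjusted p = 0.00079). Neither pair of groups overlapped. At 24 h it was 58.95, 62 and 55.42 in WT (0.87 ± 0.19 (SE), adjusted p = 0.0018) and 50.97, 54.01 and 58.62 in CsA, where it was not called (0.34, adjusted p = 0.25). The untreated CsA libraries were all higher than the WT ones, without a call (0.42, adjusted p = 0.11), and the differences between the responses were -0.46 at 2 h (-1.02 to 0.09) and -0.53 at 24 h (-1.08 to 0.03), neither called.

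Gadd45a was the lowest of the 8 genes, with 5 to 77 reads per library in the genotype experiment against 46 to 205 in the other, so its small differences were not detectable at this depth. It was the Gadd45 gene that differed between the genotypes. At 2 h the signal was 15.45, 12.21 and 6.507 in Cn-Ctl (77, 77 and 42 reads) and 1.667, 3.039 and 2.505 in SM-Cn-/- (11, 22 and 15 reads). The groups did not overlap, and the difference was -1.98 ± 0.43 (SE), adjusted p = 0.0082 on the log2 scale (fold 0.253). It was no longer called without Cn-Ctl replicate 1 or 2 or SM-Cn-/- replicate 1 (adjusted p between 0.051 and 0.071, log2 fold change between -1.89 and -1.73). Untreated libraries held 5.316 and 2.829 in Cn-Ctl and 3.21, 2.169 and 2.358 in SM-Cn-/-, so neither response at 2 h was called (1.35, adjusted p = 0.11 in Cn-Ctl and -0.10, adjusted p = 0.95 in SM-Cn-/-), nor was the difference between them (-1.45, -2.79 to -0.12, adjusted p = 0.57). Averaged over all hours, SM-Cn-/- libraries were lower by -0.74 ± 0.23 (adjusted p = 0.037), a call lost when all genes of the table were tested (adjusted p = 0.051) and without any one of 12 of the 22 libraries (adjusted p between 0.054 and 0.12, log2 fold change between -0.75 and -0.64). Those were the 3 SM-Cn-/- libraries at 24 h, SM-Cn-/- replicate 1 at 2 h, replicate 3 at 6 h and untreated replicates 2 and 3, with Cn-Ctl replicate 3 at 24 h, replicates 1 and 2 at 2 h, replicate 1 at 6 h and untreated replicate 2.

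In WT aortas Gadd45a rose from 4.119, 3.166 and 2.372 to 5.876, 6.442 and 6.45 at 2 h (log2 fold change 0.89 ± 0.23 (SE), adjusted p = 0.010, fold 1.85), without overlap, although the call was lost without untreated replicate 3 (0.71, adjusted p = 0.057). In CsA aortas it was 3.252, 4.666 and 3.869 untreated and 2.376, 4.655 and 4.917 at 2 h (-0.03, adjusted p = 0.95), with overlapping libraries. All CsA libraries at 2 h were below all WT libraries at 2 h, but neither this difference (-0.65, adjusted p = 0.15) nor the difference between the responses (-0.91, -1.60 to -0.23, adjusted p = 0.24) was called. At 24 h the change in WT was 0.59, adjusted p = 0.054 and in CsA 0.36, adjusted p = 0.34.

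Gadd45b rose at 2 h in both WT and CsA aortas. Its signal went from 27.9, 23.98 and 24.24 to 59.8, 105.4 and 69.46 in CsA (log2 fold change 1.57 ± 0.24 (SE), adjusted p = 0.00047, fold 2.96). In WT it went from 34.51, 45.24 and 28.04 to 70.17, 47.23 and 85.86 (0.89 ± 0.24 (SE), adjusted p = 0.015, fold 1.85), and that call was lost without untreated replicate 3 or replicate 1 or 3 at 2 h (adjusted p between 0.054 and 0.083, log2 fold change between 0.70 and 0.84). Neither pair of groups overlapped, and the responses differed by 0.68 (-0.05 to 1.40, adjusted p = 0.39), so a larger response with CsA was not shown. In the genotype experiment no response of Gadd45b was called. The Cn-Ctl libraries held 16.68 and 28.56 untreated and 68.5, 44.52 and 34.37 at 2 h (1.09, adjusted p = 0.081), and the SM-Cn-/- libraries held 30.39, 25.64 and 15.38 untreated, 37.75, 27.36 and 34.34 at 2 h and 50.37, 46.51 and 51.53 at 6 h (1.09, adjusted p = 0.076). The first and the last of these changes were without overlap.

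Per kilobase of merged exons, the make-up of the Gadd45 sum is given here as a description, with no test. In untreated WT aortas Gadd45b made up 43.4% (range 38.5 to 46.3) and Gadd45g 53.1% (50.8 to 57.3), and at 2 h Gadd45g made up 64.5% (59.1 to 68.2), without overlap. In CsA aortas the Gadd45g share of 66.7% (64.6 to 68.4) untreated and 61.4% (57.2 to 68.7) at 2 h overlapped. In the genotype experiment, whose values were normalised separately, Gadd45b was the largest part of the sum in untreated aortas (65.3% for Cn-Ctl, 64.7% for SM-Cn-/-), while at 24 h the share of Gadd45g was 48.2% (Cn-Ctl) and 41.6% (SM-Cn-/-). Gadd45a stayed at or below 14.3% of the sum in every library.

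**Figure D4:**
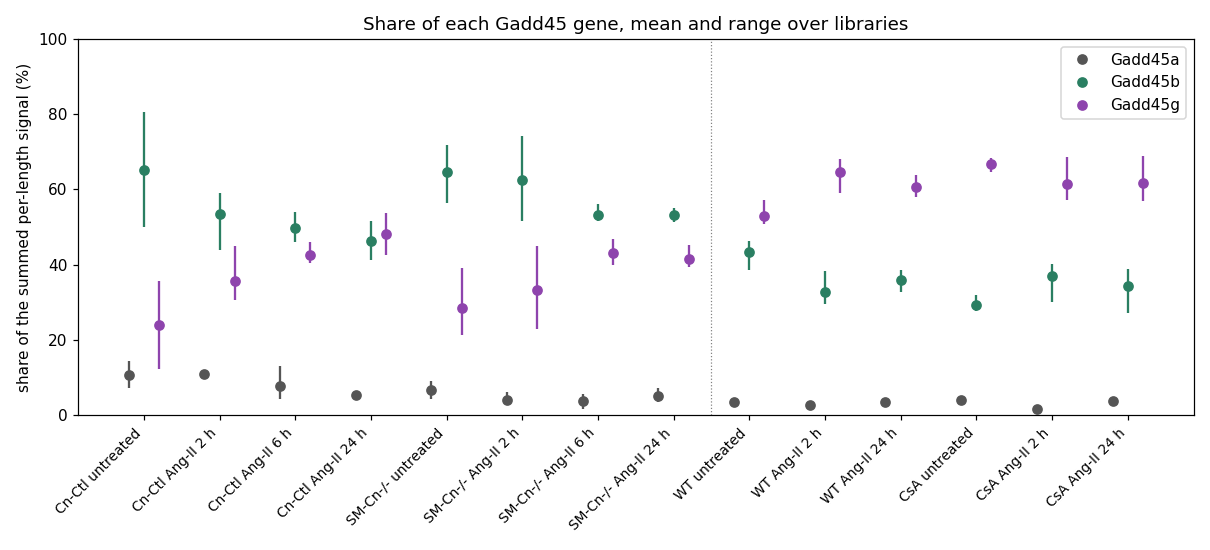
Share of the summed per-kilobase signal of the 3 Gadd45 genes (percent, axis from 0 to 100) in each group of both experiments; points are group means of 2 or 3 libraries and vertical lines the range over libraries. Gadd45a is the smallest part in each group, and the Gadd45g share is 53.1% in untreated WT and 64.5% in WT at 2 h.

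At 2 h Mdm2 changed by less than Cdkn1a, Btg2 and Gadd45g, and its libraries had low spread in the CsA experiment but not in SM-Cn-/-. In WT it was 51.41, 50.75 and 50.66 untreated and 69.81, 65 and 75.84 at 2 h (log2 fold change 0.46 ± 0.09 (SE), adjusted p = 0.0023, fold 1.37), and in CsA 49.07, 46.19 and 41.48 untreated and 61.18, 66.52 and 60.55 at 2 h (0.46 ± 0.09 (SE), adjusted p = 0.0033). Neither pair overlapped, and the 2 responses differed by 0.00 with an interval of -0.28 to 0.28. Averaged over the 3 states, CsA libraries were lower than WT by -0.18 ± 0.05 (adjusted p = 0.020). In Cn-Ctl it was 51.2 and 48.46 untreated and 87.64, 72.1 and 95.92 at 2 h, without overlap (0.76 ± 0.23 (SE), adjusted p = 0.047). That call was lost without replicate 1 or 3 at 2 h or either untreated library (adjusted p between 0.12 and 0.29, log2 fold change between 0.67 and 0.80). It was also lost with the replicate number as a block (adjusted p = 0.055), by edgeR (0.062), with quantile normalization (0.18), with median-ratio scaling (0.053) and when all genes of the table were tested (0.054). In SM-Cn-/- it was 40.39, 72.08 and 54.69 untreated and 82.81, 72.34 and 53.41 at 2 h, with overlap (0.33, adjusted p = 0.50). At 24 h neither Cn-Ctl (54.19 and 63.3) nor SM-Cn-/- (52.27, 49.81 and 48.34) had a called change.

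Ccng1 had no called rise after Ang-II. No change of Ccng1 was called at any hour in Cn-Ctl, SM-Cn-/- or WT, and the WT values were 88.34, 86.8 and 83.55 untreated, 70.38, 84.68 and 71.42 at 2 h and 88.65, 110.2 and 103.3 at 24 h. In CsA it was 131.5, 131.2 and 101.7 untreated, higher than all untreated WT libraries (log2 fold change 0.48 ± 0.11 (SE), adjusted p = 0.0068, fold 1.4), beside the shift in cell type markers given above for these libraries. It then fell to 86.82, 75.88 and 71.19 at 2 h (-0.63 ± 0.11 (SE), adjusted p = 0.0015) and 88.67, 78.76 and 88.25 at 24 h (-0.50 ± 0.11 (SE), adjusted p = 0.014), both without overlap with the untreated libraries. The fall at 24 h was not called without untreated replicate 1 or 2 or replicate 2 at 24 h (adjusted p between 0.060 and 0.068, log2 fold change between -0.45 and -0.44) or when only these groups entered the fit (adjusted p = 0.072). The difference between the responses, CsA minus WT, was -0.72 at 24 h (-1.06 to -0.38, adjusted p = 0.015) and -0.44 at 2 h (-0.78 to -0.09, adjusted p = 0.26). In the genotype experiment its values ranged from 29.62 to 104.4, with overlap between groups next to each other in the order of their means. In SM-Cn-/- at 6 h the libraries held 33.46 to 65.76, all below the untreated SM-Cn-/- libraries (70.86 to 88.02), a change that was not called.

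Over all 8 genes, the differences between the kinds of mouse were fewer than the responses. Untreated SM-Cn-/- and Cn-Ctl differed in none of the 8 by limma, with none at an unadjusted p under 0.05 and none by edgeR or DESeq2, against 0.0139% of all genes. At 2 h, Cdkn1a, Gadd45a and Btg2 were lower in SM-Cn-/-, 3 of the 8 against 3.70% of all genes, and the median log2 difference of the 8 was -0.68 against 0.00 over all genes. At 6 h, Btg2 was lower, against 1.98% of all genes. At 24 h none was called by limma, where 1 had an unadjusted p under 0.05 and edgeR and DESeq2 called 0, against 4.94% of all genes. Averaged over hours, Gadd45a alone was called, against 11.1% of all genes. As to the differences between responses, limma called none of the 8 at 2 h (3 with an unadjusted p under 0.05, against 0.513% of all genes). Of the 8, edgeR called 0 and DESeq2 called 2 there, and over all genes these tools called 65 and 176. Limma called none at 6 h either (1 with an unadjusted p under 0.05, 0 by both other tools, against 0.0624%), nor at 24 h (2, 0 by both, against 0.513%).

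Between CsA and WT, 2 of the 8 (Cdkn1a and Ccng1) were higher in untreated CsA, while 25.2% of all genes were called, so the share was close to the background. For 5 of the 8 the untreated groups did not overlap, a count for which the share over all genes was not computed. At 2 h, Btg2 and Trp53inp1 were lower with CsA, against 1.33% of all genes. At 24 h none was called by limma, where 3 had an unadjusted p under 0.05 and edgeR and DESeq2 called 0, against 5.58% of all genes. Averaged over the states, Mdm2 and Btg2 were lower with CsA, against 29.0% of all genes, a share close to the background. The difference between responses was called for Cdkn1a at 2 h, against 0.146% of all genes, and for Cdkn1a and Ccng1 at 24 h, against 9.42%.

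**Figure D5:**
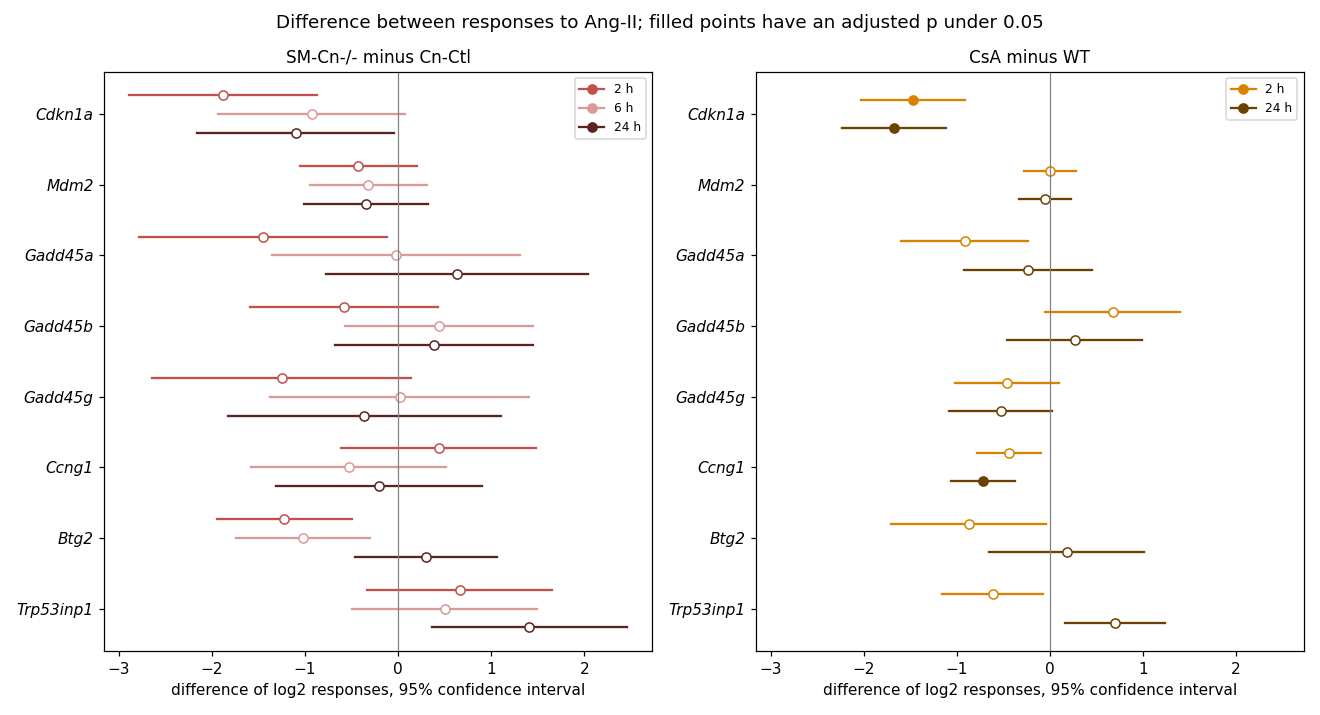
Differences between log2 responses to Ang-II, SM-Cn-/- minus Cn-Ctl (left) and CsA minus WT (right), for the 8 genes at each hour, with 95% confidence intervals from limma; filled points have an adjusted p under 0.05. Filled points are Cdkn1a at 2 h (-1.47) and 24 h (-1.67) and Ccng1 at 24 h (-0.72), all in the CsA experiment, while the Cdkn1a value at 2 h in the genotype experiment (-1.88) has a wider interval.

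Per kilobase and averaged over all libraries of an experiment, Btg2 had the highest level in both, at 66.9 in the genotype and 60.2 in the CsA experiment, and Gadd45a the lowest, at 2.74 and 2.60. In the genotype experiment the order between them was Cdkn1a (29.2), Gadd45b (23.2), Trp53inp1 (21.7), Ccng1 (19.5), Gadd45g (16.7) and Mdm2 (12.2). In the CsA experiment it was Gadd45g (54.3), Gadd45b (31.0), Ccng1 (26.0), Cdkn1a (25.3), Trp53inp1 (25.1) and Mdm2 (11.2). The place of Btg2 there came from WT at 2 h (177.2 per kilobase), and Gadd45g stood above Btg2 in untreated CsA (36.5 against 22.6), in CsA at 2 h (81.2 against 79.3), in WT at 24 h (50.1 against 27.0) and in CsA at 24 h (46.5 against 24.7). Ordered by group, Cdkn1a stood at 142 ± 19.3 (SD, n = 3) in WT at 2 h, 115 ± 23.1 in CsA at 2 h and 107.7 ± 10.7 in WT at 24 h, neighbours whose libraries overlapped, and lowest in untreated WT at 29.88 ± 2.80, which overlapped no other group. Btg2 was ordered more clearly at 2 h, with 486.2 ± 15.6 (SD, n = 3) in WT and 217.5 ± 63.9 in CsA, while its other 4 groups in that experiment, from 82.78 down to 61.9, overlapped their neighbours. In the genotype experiment the groups of Btg2 were ordered without overlap from Cn-Ctl at 2 h (447.1 ± 144.7) through Cn-Ctl at 6 h (251.7 ± 15.7) and SM-Cn-/- at 2 h (201.5 ± 36.2) to SM-Cn-/- at 6 h (134.1 ± 8.49), and the remaining groups overlapped.

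The genes whose group means were most like each member were sought among 10348 genes by the lower of their 2 Pearson correlations of log2 signal, over 8 group means in the genotype and 6 in the CsA experiment. For Cdkn1a these were B4galt1 (0.97 and 0.98), Iffo2 (0.96 and 0.97) and Tmem120a (0.96 and 0.93). For Btg2 they were Zfp36 (0.97 and 0.97), which encodes an mRNA decay factor, Bdp1 (0.97 and 0.97) and Arid5b (0.95 and 0.97). For Mdm2 they were Ube2d3 (0.98 and 0.98), a ubiquitin-conjugating enzyme, Adamts1 (0.97 and 0.98) and Atp13a3 (0.97 and 0.99). Gadd45b was most like its paralogue Gadd45g (0.88 and 0.88), followed by Bcl2l1 (0.86 and 0.89), and Trp53inp1 was most like Tax1bp1 (0.97 and 0.96), Gm13212 (0.97 and 0.96) and Rhob (0.95 and 0.99). Gadd45g was most like Tbc1d10a (0.95 and 0.98), Wdr95 (0.98 and 0.94) and Nbl1 (0.93 and 0.93). The values were 0.79 to 0.85 for Gadd45a (Serpinb8, Emd and Eprs) and 0.84 to 0.95 for Ccng1 (Micu2, Xpo7 and Gbp2). Among the members themselves, Btg2 and Trp53inp1 had 0.83 and 0.97, Mdm2 and Btg2 0.90 and 0.87, and Cdkn1a and Gadd45g 0.73 and 0.92, while every correlation of Ccng1 with another member was negative. These are descriptions over few group means that share libraries within an experiment.

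The other p53 target genes, a list of 40 without the 8 genes above, were mostly not called at 2 h. In Cn-Ctl at 2 h, 4 of the 39 tested (10.3%, against 6.23% of all genes) rose and none fell, namely Plk3 (2.48, adjusted p = 0.013), a stress kinase, Ddit4 (1.36, adjusted p = 0.035), an inhibitor of mTORC1, Slc19a2 (1.27, adjusted p = 0.021) and the death receptor Tnfrsf10b (1.20, adjusted p = 0.0042), values being log2 fold changes throughout. In WT at 2 h, 8 of 37 rose and 2 fell (27% called, against 21.4% of all genes, so close to the background), with Ddit4 at 1.96, Plk3 at 1.95, Tnfrsf10b at 0.75 and Ccng2 at 0.70. The medians of the list were 0.24 in Cn-Ctl and 0.02 in WT, against 1.22 for the 8 genes in both. In SM-Cn-/- 2 rose, against 1.13% of all genes (Ddit4, 1.75, adjusted p = 0.0095, and Sesn1, 1.10, adjusted p = 0.013), and in CsA 4 rose and 2 fell (16.2% called, below the 20.1% of all genes), among them Plk3 (1.29) and Tnfrsf10b (1.05). In WT at 24 h 15 rose and 6 fell (56.8% called, against 35.0% of all genes). Between SM-Cn-/- and Cn-Ctl at 2 h only Tnfrsf10b of this list was called (-1.26, adjusted p = 0.0017), against 3.70% of all genes. Untreated CsA aortas differed from WT in 8 of these genes (21.6%, below the 25.2% of all genes called), 6 of them higher, with Tap1 at 2.26, Ddit4 at 1.30 and Plk2 at 1.07.

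Of p53 and its regulators (16 of 18 tested, with Ppm1d shared with the target list), none was called at 2 h in Cn-Ctl or SM-Cn-/- by limma or edgeR, with 3 and 2 at an unadjusted p under 0.05 and 0 and 1 called by DESeq2. In WT at 2 h Hipk2, a kinase that activates p53, rose (1.20, adjusted p = 0.00013), while Mtbp (-0.61, adjusted p = 0.012) and Trp53 itself (-0.44, adjusted p = 0.024) fell. Untreated CsA aortas had less Trp53 than WT (-0.37, adjusted p = 0.048) and more Trp63 (1.43, adjusted p = 0.043), a p53 relative of epithelial cells. Among the other CDK inhibitors, 5 of 7 were tested and none was called at 2 h in Cn-Ctl or WT by limma, edgeR or DESeq2, with 1 and 0 at an unadjusted p under 0.05. In untreated CsA Cdkn2c (1.37, adjusted p = 0.0011) and Cdkn1c (0.28, adjusted p = 0.024) were higher than in WT. In WT at 24 h Cdkn1c (-0.58, adjusted p = 7.6e-05) and Cdkn1b (-0.37, adjusted p = 0.028), which encode p57 and p27, fell where Cdkn1a rose. Averaged over hours, 2 CDK inhibitors were higher in SM-Cn-/- than in Cn-Ctl (40%, against 11.1% of all genes).

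The BTG and TOB relatives of Btg2 rose beside it in WT. In WT at 2 h, 4 of 4 tested rose (against 21.4% of all genes called), with Btg3 at 1.30, Tob2 at 1.24, Tob1 at 1.03 and Btg1 at 0.45. In CsA 3 of 4 rose (against 20.1% of all genes), with Btg3 at 1.26, Tob2 at 0.94 and Btg1 at 0.50. In Cn-Ctl Tob2 rose (0.98, adjusted p = 0.026), in SM-Cn-/- limma and edgeR called none of the 4 (1 at an unadjusted p under 0.05, 1 by DESeq2), and Btg1 was lower in SM-Cn-/- than in Cn-Ctl at 2 h (-0.97, adjusted p = 0.0081). Of 10 kinases that act with Gadd45 proteins in the p38 and JNK pathways, Map2k3, which activates p38, rose in Cn-Ctl (1.31, adjusted p = 0.0029) and WT (0.88, adjusted p = 0.00047) at 2 h. Map2k3 was lower in SM-Cn-/- than in Cn-Ctl at 2 h (-1.38, adjusted p = 0.0010), and Mapk14, which encodes p38α, fell in WT at 2 h (-0.60, adjusted p = 0.00017). G1 cyclins and kinases (14 genes) and S and G2/M genes (24 listed) held few calls at 2 h. None of either list was called in Cn-Ctl by limma or edgeR, with 0 G1 and 2 S and G2/M genes at an unadjusted p under 0.05 and 0 and 1 called by DESeq2. In WT 3 G1 genes rose (E2f3, 0.62, Rb1, 0.42, and Ccnd3, 0.27), a share of 21.4% equal to the background, and Pcna (0.48) rose while Mcm2 (-0.63) and Mcm4 (-0.53) fell (14.3% of the S and G2/M genes). In WT at 24 h 4 of 21 S and G2/M genes (19%, below the 35.0% of all genes) rose, among them Cdt1 (0.87, adjusted p = 0.025) and Pcna (0.55, adjusted p = 0.0012), and Ccnd2 was among 3 G1 genes that fell (-0.76, adjusted p = 0.00012).

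Other growth arrest and stress genes (14 of 15 tested) were called more often in Cn-Ctl than the p53 targets, a difference that was not tested. In Cn-Ctl at 2 h 6 rose and none fell, against 6.23% of all genes called. Atf3 stood at 4.06, Ier5 at 2.98, Klf6 at 2.25 and Klf4 at 2.17, and the list median was 1.25. In SM-Cn-/- at 2 h Klf6 alone was called (0.94, adjusted p = 0.0086), against 1.13% of all genes. Between the genotypes at 2 h 6 were lower and 1 higher in SM-Cn-/- (against 3.70% of all genes), with Atf3 at -3.00, Ier5 at -2.21, Ppp1r15a (Gadd34) at -1.48 and Klf4 at -1.44. For 4 of them the response itself was smaller in SM-Cn-/- (Atf3, -3.20, adjusted p = 0.00081, Ier5, -2.63, adjusted p = 0.0076, Klf4, -1.94, adjusted p = 0.0061, and Klf6, -1.31, adjusted p = 0.021), against 0.513% of all genes. In WT 8 rose (against 21.4% of all genes), with Atf3 at 3.37, Ier5 at 2.81, Ppp1r15a at 2.14 and Ier3 at 2.10, and in CsA 6 rose and 1 fell (against 20.1%). Between CsA and WT at 2 h Ppp1r15a alone was lower (-1.03, adjusted p = 0.040), against 1.33% of all genes.

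Transcription factors known to act on Cdkn1a or the Gadd45 genes (23 genes, with Klf4, Klf6 and Atf3 shared with the list before) also rose early. At 2 h 8 rose in Cn-Ctl (34.8%, against 6.23% of all genes), 14 in WT (60.9%, against 21.4%) and 3 in SM-Cn-/- (13%, against 1.13%, with Foxo3, 1.51, adjusted p = 0.0056, Foxo1, 0.70, adjusted p = 0.022, and Klf6), none falling, and in CsA 8 rose (against 20.1% of all genes called). Myc, which represses Cdkn1a, rose in Cn-Ctl (4.47, adjusted p = 1.1e-05), WT (3.54, adjusted p = 1.9e-06) and CsA (2.05, adjusted p = 0.00058). In WT Egr1 (2.84) and Cebpb (1.77) rose as well. At 2 h 8 were lower in SM-Cn-/- than in Cn-Ctl (against 3.70% of all genes called), among them Myc (-3.02, adjusted p = 0.00056) and Egr1 (-1.95, adjusted p = 0.0042), and Egr1 was lower with CsA than in WT (-2.01, adjusted p = 0.0044). The response of Myc at 2 h was smaller in SM-Cn-/- (-4.27, adjusted p = 0.0061), and at 24 h smaller with CsA (-2.32, adjusted p = 0.0090), as were those of 7 other factors of the list at 24 h (34.8% with Myc, against 9.42% of all genes), Runx1 among them (-1.97, adjusted p = 0.045). Klf4 was the one factor whose response at 2 h differed with CsA by limma (-0.96, adjusted p = 0.040). Over all genes, limma called 20 in this difference, edgeR 5 and limma with quantile normalization 1. Any link between Klf4 and the called difference of Cdkn1a at that hour was not tested.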

How the data were processed

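RNA from pools of 3 aortas was reverse transcribed with oligo-dT priming and sequenced on the Illumina Genome Analyzer IIx, and RNA with an integrity number below 7 had been discarded. Per the labels and the study's methods, the authors aligned reads with Bowtie 0.12.7, estimated transcript abundance with RSEM 1.16 on GRCm38 with Ensembl transcripts, and left out 1 untreated Cn-Ctl library for its place in a principal component analysis. The deposited values are a normalised signal per gene and library, namely (reads + 0.5) over a rescaled library size, and all values of each library converted back to whole reads within a tolerance of 0.01. Depth was 2.728 to 10.25 M reads in the genotype and 18.976 to 38.9 M in the CsA experiment.

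The 8 genes were matched by symbol in both tables. From the signal, log2(signal + 0.5) was fitted with limma 3.58.1 (R 4.3.3), with a trended prior, a mean for each group and one model per experiment, over protein-coding genes with a signal of at least 1 in at least 2 libraries (14424 genes for genotype, 13738 for CsA). Fold changes are on the log2(signal + 0.5) scale, which understates those of low genes. P-values were adjusted by Benjamini-Hochberg over all genes tested, and a gene was called under 0.05. The study names no test. There were 24 comparisons: 10 responses to Ang-II, 7 differences at the same hours, 2 averages over hours and 5 differences between responses. P-values measure the spread between pools. The alternatives were edgeR 4.0.16 and DESeq2 1.42.0 on the recovered reads, quantile and median-ratio scaling, a pseudocount of 2, other filters, all genes, only the groups compared, the replicate number as a block, and each library left out in turn. The scripts were tested on simulated data.

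Besides the 8 genes, the text names up to 4 genes per list and comparison that changed most on the log2 scale among those called, the 3 genes most like each member, and Ppp3r1 and Rcan1. A few results on other genes that these rules would name are not reported here. The lists hold p53 targets, p53 regulators, CDK inhibitors, G1 genes, S and G2/M genes, BTG and TOB proteins, partner kinases, stress genes, transcription factors and cell type markers. The genes and the lists were chosen with earlier results of these data known, so none of them is independent support. Promoter windows are RefSeq sequences of GRCm38.p6, and gene positions are those of GENCODE M21. Figures were drawn with matplotlib 3.10.9.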

Additional observations from a re-analysis of the deposited data

Results flagged for a closer look

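For 3 results a difference between responses was called. The Cdkn1a response to Ang-II at 2 h was -1.47 on the log2 scale in CsA minus WT mice, and at 24 h it was -1.67. The Ccng1 response at 24 h was -0.72 in CsA minus WT mice, and for this gene every WT library moved one way, above the untreated mean, and every CsA library the other. In these 3 differences the untreated CsA libraries, which also differed from untreated WT in adipocyte, endothelial, leukocyte and smooth muscle markers, enter as the reference, and the part of those markers was not tested.

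The Mdm2 libraries at 24 h lay above the untreated mean in Cn-Ctl and below it in SM-Cn-/-, with a difference of -0.34 between the responses, which was tested and not called (adjusted p = 0.75). Groups of 2 or 3 libraries were too small to test single libraries as outliers.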

How the results depend on the processing

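Of 44 called differences of the 8 genes, 22 were called under every alternative that tested them and without any one library. Under every such alternative that kept all libraries, 30 were called, and none changed direction. The called differences of Gadd45a were tested in 9 of the 10 alternatives that kept all libraries. Of the 148 uncalled differences, 12 changed sign under an alternative and 10 were called under one. No scaling moved the median of all genes by more than 0.0962. The number of genes called moved by more than 1.5 times as follows, and losses of single calls stand beside those genes above. DESeq2 called 1 instead of 0 in SM-Cn-/- at 24 h, 2 instead of 1 for the genotypes averaged over hours, 2 instead of 0 for the genotype difference between responses at 2 h, and 2 instead of 1 in CsA at 24 h. EdgeR called 1 instead of 2 in Cn-Ctl at 24 h, 2 instead of 1 for the averaged genotypes, 1 instead of 2 between CsA and WT at 2 h, and 0 instead of 1 for the CsA difference between responses at 2 h. For the averaged genotypes, testing all genes gave 0 and median-ratio scaling 2. With only the compared groups, 1 was called in Cn-Ctl at 24 h, 0 between genotypes at 6 h, 0 in CsA at 24 h and 0 between CsA and WT at 2 h. Quantile normalization gave 1 in SM-Cn-/- at 2 h, 1 between genotypes at 2 h, 0 between genotypes at 6 h, 2 in CsA at 24 h, 0 between CsA and WT at 2 h and 0 for the CsA difference between responses at 2 h. The cause of these moves was not tested.

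Leaving out 1 library gave 2 to 4 calls in Cn-Ctl at 2 h, 1 to 3 at 6 h and 0 to 2 at 24 h, and in SM-Cn-/- 0 to 3 at 2 h and 0 to 1 at 6 h. Between genotypes it gave 0 to 3 at 2 h, 0 to 1 at 6 h, 0 to 1 at 24 h, 0 to 1 averaged over hours and 0 to 1 for the difference between responses at 2 h. In the CsA experiment it gave 0 to 2 in CsA at 24 h, 0 to 2 between CsA and WT at 2 h, 0 to 1 at 24 h and 0 to 1 for the difference between responses at 2 h. With 1 library left in a group, that library was assumed to vary like the other groups. The low read counts of Gadd45a limit what its values can show.

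The replicate numbers were not treated as pairing the libraries as a whole. The deviations of same-numbered libraries from their group means correlated at -0.37 to 0.34 over 71 pairs in the genotype experiment (27 above 0.1) and at -0.39 to 0.38 over 45 pairs in the CsA experiment (11 above 0.1). All 3 same-numbered pairs were above 0.1 for 1 of 15 pairs of groups in each experiment, untreated CsA with CsA at 2 h (0.169 to 0.377) and SM-Cn-/- at 2 h with Cn-Ctl at 6 h (0.135 to 0.297), of which only the first was compared, and there the block changed no call. With the replicate number as a block, 1 gene instead of 2 was called between CsA and WT at 2 h and 0 instead of 1 for the CsA difference between responses at 2 h (Cdkn1a, adjusted p = 0.061), and Mdm2 was no longer called in Cn-Ctl at 2 h (adjusted p = 0.055); no other call changed.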
